A study of Mus musculus with 8 samples.

Results

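Eukaryotic translation initiation factor genes were examined as targets of Flag-tagged HoxB4 on the deposited promoter arrays. They were taken as every gene whose array symbol begins with Eif followed by a digit, leaving out chromosomes X and Y. This gave 48 genes of 16324 autosomal genes measured, 24 on each of the 2 arrays and 0 on both. All 48 had a 3-probe window, and 47 had at least 1 probe within 500 bp of the annotated start. The exception was Ago2 (array symbol Eif2c2), whose 39 probes all lay far inside the gene. The array symbols are old, and 4 of the 48, Eif2c1 to Eif2c4, are now named Ago1 to Ago4. These encode Argonaute proteins, which load small RNAs, and are not initiation factors by their present names.

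Initiation factors bring the small ribosomal subunit, the initiator tRNA and a capped mRNA together and release the ribosome at the start codon. eIF2 carries the initiator tRNA as a complex with GTP, eIF2B recharges it with GTP, and stress-activated kinases slow translation by phosphorylating it. eIF4E binds the cap, eIF4A unwinds the leader and eIF4G bridges them to eIF3 on the ribosome. Blood stem and progenitor cells are known for tightly held rates of protein synthesis, and HoxB4 is a homeodomain transcription factor known for expanding such cells in culture.

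The chromatin came from mouse blood progenitors grown from the ES cell line B6N-22UTR. Precursors positive for c-Kit and CD41 were sorted from embryoid bodies at day 6, placed on OP9 stromal cells and transduced with a retrovirus carrying 3xFLAG-HoxB4, and c-Kit+ cells were taken with magnetic beads at day 12 of coculture. DNA from the Flag immunoprecipitate (Flag-IP, Cy5) and input DNA (Cy3), both amplified with T7 RNA polymerase, were hybridised together on 2 Agilent arrays that cover different promoters. The protein is overexpressed and tagged, and cells with an untagged protein or a mock precipitate were not analysed here. Each promoter lies on 1 array, so there is no replicate and no test. An SD given below is over neighbouring probes of a gene, which are not replicates. The cell type could not be checked against marker transcripts, because no table here pairs the expression probe sets with genes. Each array held about as many probes as the other (237195 and 237185, without controls and before outliers were left out). On each, 95.3% of them were well above background, and none was saturated.

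Values are log2 of Flag-IP over input signal, centred on the median of each array, so that 0 is a typical probe and 1 is 2 times that. Most initiation factor genes had a raised ratio around their start. The mean within 500 bp of the start had a median of 0.59 over the 47 genes (quartiles 0.32 and 0.79), against 0.32 over all 15689 autosomal genes with such probes. It reached 0.5 in 27 of 47 genes (57.4%), against 36.5% of all genes. It reached 1 in 6 of 47 genes (12.8%), close to the 11.4% of all genes. These were Eif3d, Eif3f, Eif2b4, Eif2b2, Eif5b and Eif3c. It lay below 0 in 4 genes (8.51%), against 26.7% of all genes. In these main values the shift therefore came from few low genes and many moderate ones, with high ratios about as frequent as elsewhere. The shares at 0.5 and at 1 depended on the processing. With the brightness trend removed, 25.5% of Eif genes lay at 0.5 or more, against 24.0% of all genes. At 1 or more lay 25.5% of Eif genes with normexp background correction, against 17.5% of all genes. With the brightness trend removed it was 8.51% against 4.51%, and without shared probes 10.6% against 11.8%.

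The highest 3-probe median anywhere along a gene gave a smaller difference. Its median was 0.95 for the 48 genes and 0.89 for all 16099 autosomal genes with a window. It reached 1 in 23 of 48 genes (47.9%), against 41.8%. The arrays differed in this, with 9 of 24 Eif genes (37.5%) against 44.1% of all genes on array 1 and 14 of 24 (58.3%) against 39.2% on array 2. It reached 2 in Eif5b (2.23) and Eif4a2 (2.08), which is 4.17% against 2.82%. The lowest 3-probe median was at or below -2 in Eif2s1 (-2.05) and Eif2ak4 (-2.13), 4.17% against 11% of all genes. The highest window was centred within 500 bp of the start in 24 of 48 genes (50%), against 35.8% of all genes. It was farther upstream in 11 and farther downstream in 13. This excess came from array 1, with 16 of 24 genes (66.7%) against 36.4% of all genes, while array 2 had 8 of 24 (33.3%) against 35.1%. The median near the start was 0.60 for the Eif genes of array 1 and 0.54 for those of array 2, against 0.34 and 0.31 for all genes of the same arrays. Without the Argonaute genes the median near the start was 0.60 over 44 genes.

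**Figure D1:**
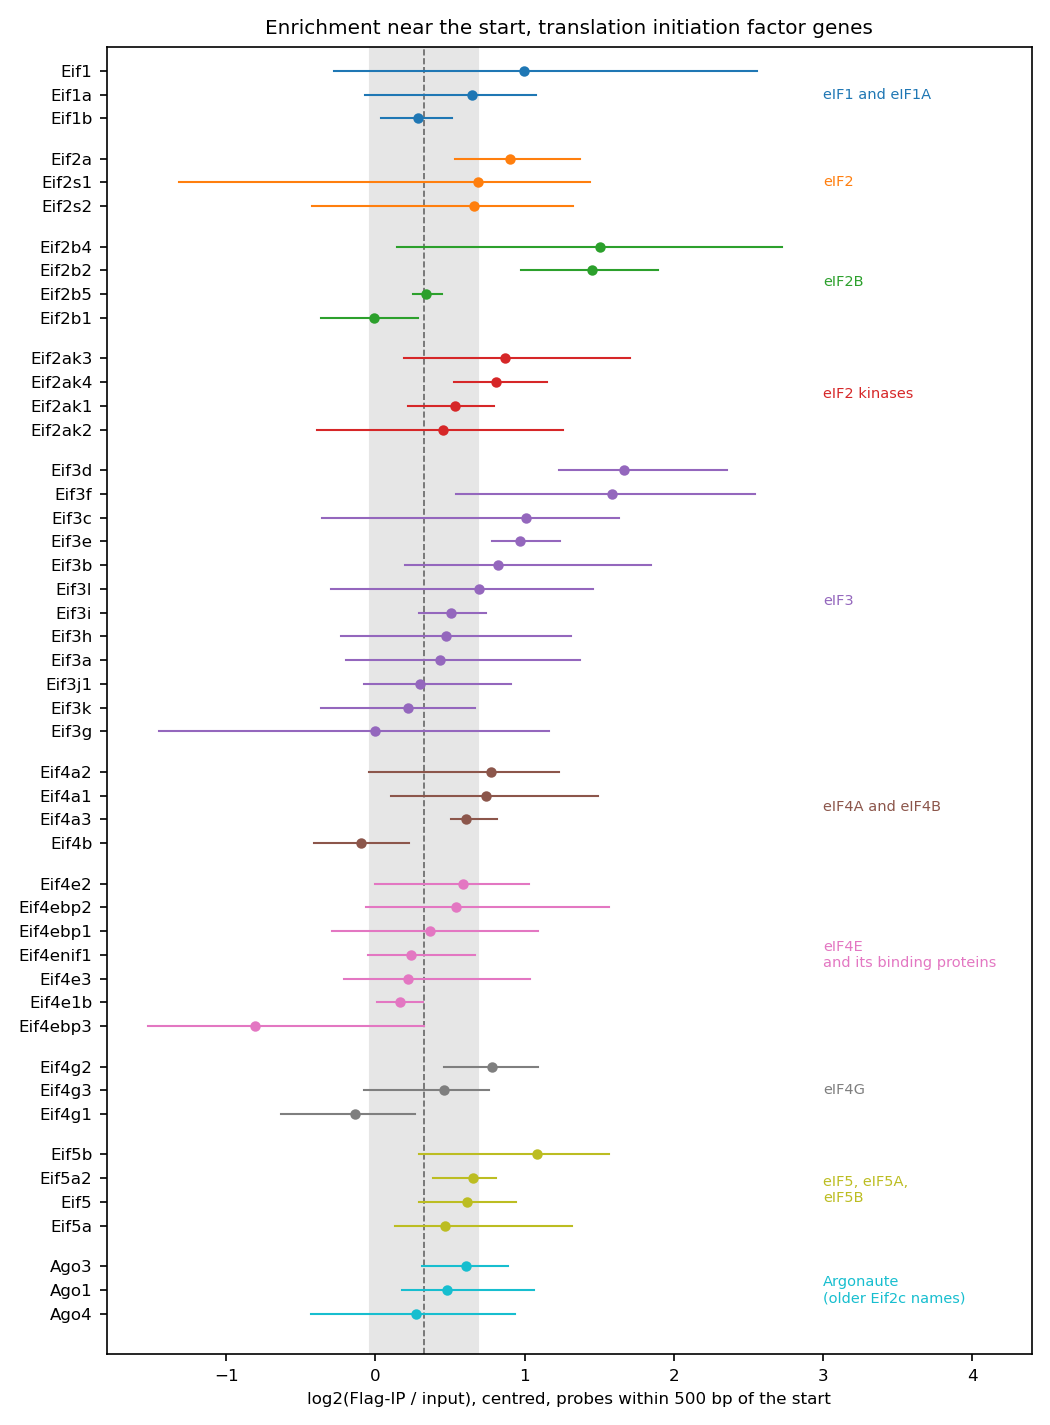
Mean log2 ratio of Flag-IP over input within 500 bp of the start for 47 Eif genes grouped by role, with bars from the lowest to the highest single probe; the dashed line and grey band are the median and quartiles over all autosomal genes. Eif3d (1.66) has the highest mean and Eif4ebp3 (-0.81) the lowest, and most points lie right of the dashed line at 0.32.

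The ratio of the Eif genes was highest around the start. Averaged over genes, the Eif genes had 0.49 in the 500 bp before the start and 0.66 in the 500 bp after it, against 0.21 and 0.38 for all genes. The average was 0.33 from 500 to 1000 bp and -0.24 from 1000 to 1500 bp downstream, against 0.11 and -0.10. From -1500 to -1000 bp it was -0.36, against -0.20, and from -2000 to -1500 bp -0.39, against -0.27. Between -5500 and -2000 bp the Eif average lay above that of all genes, except from -4000 to -3500 bp (-0.37 against -0.34). It was -0.12 against -0.37 from -5500 to -5000 bp, and -0.03 against -0.19 from 2000 to 2500 bp. The excess over all genes was therefore not confined to the start. The mean near the start exceeded the mean of the same gene's probes from -5500 to -2000 bp in 33 of 36 genes with both (91.7%, median difference 0.72), against 77.9% of all genes (0.54). It exceeded the mean from 1000 to 3000 bp in 39 of 47 (83.0%, median 0.71), against 72.7% (0.41). The cytosolic ribosomal protein genes, set beside them as the other large translation family, had a higher average of 1.04 just after the start. They still stood at 0.66 from 1000 to 1500 bp, where the Eif genes were below 0.

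**Figure D2:**
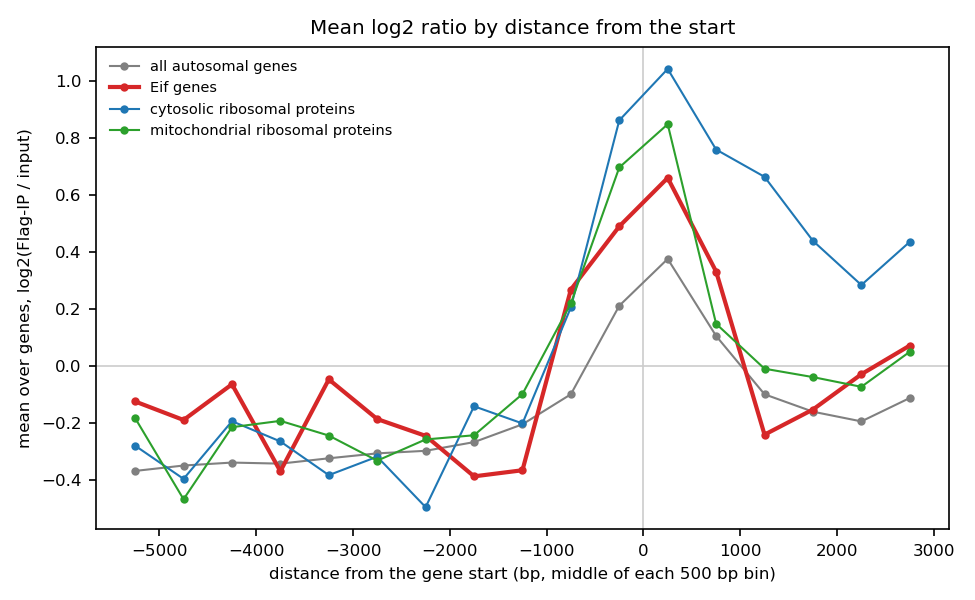
Mean over genes of the log2 ratio in 500 bp bins of distance from the start, for Eif genes, all autosomal genes and the cytosolic and mitochondrial ribosomal protein genes. The Eif genes peak at 0.66 in the first bin after the start, above all genes (0.38), and drop to -0.24 by 1000 to 1500 bp, where the cytosolic ribosomal protein genes remain at 0.66.

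The promoters of the 3 genes with the highest mean near the start and of Eif4g1 and Eif4b, 2 of the lowest, are shown so that motif matches can be read in their sequence. They run 5′ to 3′ on the gene's strand from 250 bases before the annotated start to 50 from it, as given by RefSeq for GRCm38.p6. Capitals mark TAAT (the homeodomain core), CACGTG (an E-box), CCGGAAG (Ets) and AAGATGGC (YY1) on either strand. Eif3d lies at chr15:77970775-77971074 (-), Eif3f at chr7:108934165-108934464 (+), Eif2b4 at chr5:31193090-31193389 (-), Eif4g1 at chr16:20672477-20672776 (+) and Eif4b at chr15:102073523-102073822 (+). No source used here gives the build of the probe positions. The array positions of these genes differ from the RefSeq positions, so the start in RefSeq may not be the start used on the array. Many probes within 500 bp of a start also lie outside the stretch shown.
Eif3d: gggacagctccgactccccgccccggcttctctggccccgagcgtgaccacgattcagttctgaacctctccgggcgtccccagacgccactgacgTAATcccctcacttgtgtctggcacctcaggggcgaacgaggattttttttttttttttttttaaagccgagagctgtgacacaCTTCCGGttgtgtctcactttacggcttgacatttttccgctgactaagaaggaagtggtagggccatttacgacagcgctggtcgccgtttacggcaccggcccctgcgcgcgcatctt
Eif3f: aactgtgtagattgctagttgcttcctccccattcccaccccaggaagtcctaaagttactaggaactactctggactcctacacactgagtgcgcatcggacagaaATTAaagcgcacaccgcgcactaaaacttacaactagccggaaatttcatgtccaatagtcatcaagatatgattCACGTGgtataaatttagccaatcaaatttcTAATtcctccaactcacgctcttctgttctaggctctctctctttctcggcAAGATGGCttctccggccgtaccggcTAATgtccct
Eif2b4: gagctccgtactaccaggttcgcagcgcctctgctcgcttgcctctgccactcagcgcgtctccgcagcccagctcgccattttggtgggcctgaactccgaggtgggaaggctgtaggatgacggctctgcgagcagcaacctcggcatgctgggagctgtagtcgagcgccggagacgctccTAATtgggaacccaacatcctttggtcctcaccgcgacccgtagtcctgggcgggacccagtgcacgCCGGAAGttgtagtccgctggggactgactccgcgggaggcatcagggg
Eif4g1: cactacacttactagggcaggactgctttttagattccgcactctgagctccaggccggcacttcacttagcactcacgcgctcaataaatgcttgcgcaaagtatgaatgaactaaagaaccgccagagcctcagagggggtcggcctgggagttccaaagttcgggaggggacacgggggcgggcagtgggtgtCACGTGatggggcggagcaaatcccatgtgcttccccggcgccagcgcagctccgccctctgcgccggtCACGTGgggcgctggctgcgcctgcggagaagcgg
Eif4b: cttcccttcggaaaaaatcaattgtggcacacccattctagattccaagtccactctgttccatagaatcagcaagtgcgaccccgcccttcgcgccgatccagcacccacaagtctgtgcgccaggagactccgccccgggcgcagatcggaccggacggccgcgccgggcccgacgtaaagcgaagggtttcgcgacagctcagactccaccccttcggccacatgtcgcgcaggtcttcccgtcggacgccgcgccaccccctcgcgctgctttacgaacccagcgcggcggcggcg
With offset 0 as the start base, Eif3d held TAAT at -154 and CCGGAAG at -70. Eif3f held TAAT at -143, -37 and 40, CACGTG at -68 and AAGATGGC at 14. Eif2b4 held TAAT at -66 and CCGGAAG at 1. Eif4g1 held CACGTG at -54 and 15 and no TAAT, and Eif4b held none of the motifs. A match is a stretch of letters and not a bound site.

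eIF3, the largest initiation complex and the platform on which the others meet, had 12 genes, with a median near the start of 0.60 and 7 of 12 at 0.5 or more (58.3%), near the 57.4% of all Eif genes and against 36.5% of all genes. Eif3d (array symbol Eif3s7), whose protein can itself contact the cap, was the highest of all 47 genes at 1.66 ± 0.42 (SD over 6 probes). Its probes read 1.57 at -488 bp, 1.24 at -320, 1.23 at -103, 2.36 at 10, 1.87 at 248 and 1.72 at 398. All 6 were above 1, and the peak sat on the start, where Flag-IP signal was 2805 and input 523. Beyond it the ratio fell to -0.40 at -808 bp and 0.37 at 776 bp, so this peak was little wider than 1 kb. Farther inside the gene the ratio rose again, to 1.14 at 1863 bp and 1.36 at 2170.

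Eif3f (array symbol Eif3s5), a subunit with an MPN fold, followed at 1.59 ± 1.00 over only 3 probes. They read 1.67 at -296 bp, 2.55 at -90 and 0.54 at 330. Both upstream probes are also assigned to Nlrp10, whose start lies 4257 bp away, and without them only the 0.54 remained within 500 bp. Farther inside the gene its own probes read 1.53 at 609 bp, -0.13 at 820, -0.01 at 924, 0.86 at 1144, 1.52 at 1252 and 1.66 at 1427. The highest window of Eif3f without shared probes was 1.52. The other members ran from Eif3c (1.01) and Eif3e (0.97) through Eif3b (0.82), Eif3l (0.70), Eif3i (0.51), Eif3h (0.47), Eif3a (0.43), Eif3j1 (0.30) and Eif3k (0.22) to Eif3g at 0. Eif3g had the widest disagreement between its own probes in the complex, from -1.45 to 1.16. Eif3a and Eif3b form the scaffold of the complex, and the genes of its other subunits lay both above and below them. Eif3b (array symbol Eif3s9) had raised probes on both sides of its start, with 1.89 at -625 bp, 1.85 at -350 and 0.99 at -187, then 0.66 at 58, 0.41 at 195 and 0.20 at 349, and again 1.39 at 588 and 0.91 at 733.

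Of the eIF2B exchange factor, 4 genes were measured, and they split into 2 high and 2 low. Eif2b4, the delta subunit, had a mean of 1.50 ± 1.06 over 4 probes, reading 1.45 at -203 bp, 1.69 at -99, 2.72 at 129 and 0.15 at 469. The probe at 129 was the highest single value near the start of any Eif gene, with Flag-IP signal 10175 against input 1478, and by 469 bp the ratio was near 0. Eif2b2, the beta subunit, had 1.45 ± 0.47 over 4 probes, reading 1.12 at -302, 0.98 at -48, 1.89 at 100 and 1.83 at 245. Its ratio stayed high inside the gene, with 2.26 at 503 bp and 1.08 at 924. Eif2b5, the catalytic epsilon subunit, had 0.34 ± 0.10 over 4 probes and Eif2b1, the alpha subunit, -0.01 ± 0.33 over 3. Near the start the probes ran from 0.98 to 1.89 in Eif2b2, 0.25 to 0.44 in Eif2b5 and -0.36 to 0.29 in Eif2b1. Those of Eif2b4 ran from 0.15 to 2.72. Neighbouring probes are not replicates, so these ranges describe the genes and do not test a difference between them. The probes of Eif2b1 all lay after its start, from 48 to 429 bp.

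The eIF2 group was more even. Eif2s1, the alpha subunit that the stress kinases phosphorylate, had 0.68 ± 1.15, Eif2s2, the beta subunit, 0.66 ± 0.71, and Eif2a, a separate factor that can also deliver initiator tRNA, 0.90 ± 0.35. The Eif2s1 mean joined unlike probes, 1.42 at -303 bp, 0.79 at -200, 1.44 at -83 and 1.09 at 345, with -1.32 at 471. That last probe had an input signal of 54690, far above the others near this start. The kinases had a median of 0.67. Eif2ak3 (PERK, which senses stress in the endoplasmic reticulum) stood at 0.87, Eif2ak4 (GCN2, amino acid shortage) at 0.81, Eif2ak1 (HRI, heme shortage) at 0.53 and Eif2ak2 (PKR, double-stranded RNA) at 0.45. Their probe ranges all overlapped and there is no replicate, so the order carries little weight.

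Genes acting at the start codon and at subunit joining also lay mostly above the overall median of 0.32. Eif1, which guards start codon choice, had 1.00 ± 1.44 over 3 probes, from -0.28 at -388 bp and 0.70 at -109 to 2.56 at 456. Its signal therefore lay inside the gene and went on with 1.55 at 661 bp and 1.52 at 1278. Eif1a had 0.65 and Eif1b 0.29. Eif5b, the GTPase that joins the ribosomal subunits, had 1.09 ± 0.59 over 6 probes and the highest 3-probe median of all 48 genes. Eif5a2 had 0.65, Eif5, which triggers GTP hydrolysis on eIF2, 0.61 and Eif5a 0.46, the last a factor now known mainly for elongation.

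The cap-binding machinery was divided. The helicase genes Eif4a2 (0.77 ± 0.52), Eif4a1 (0.74 ± 0.58) and Eif4a3 (0.61 ± 0.18), the last encoding a core protein of the exon junction complex, lay together. Eif4b, a helicase cofactor, stood at -0.09 over only 2 unlike probes, -0.41 at -121 bp and 0.22 at 233. In Eif4a2 the probes near the start read 0.69 at -399 bp, -0.04 at -293, 1.23 at -156, 0.79 at 48 and 1.21 at 274. The peak came later, with 2.08 at 538 bp, 2.09 at 648 and 1.48 at 814, and was over by 943 bp (-0.05). Among the scaffolds, Eif4g2 had 0.78, Eif4g3 0.46 and Eif4g1, the main eIF4G, -0.14 ± 0.39. Eif4g1 probes read -0.63 at -434 bp, -0.38 at -311, 0.22 at -138, -0.17 at 65 and 0.27 at 342, so none of them reached 0.68, the upper quartile of the gene means.

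eIF4E relatives and eIF4E-binding proteins were the lowest role group, with a median of 0.24 over 7 genes, below the 0.32 of all genes. Eif4e2 (0.59) and Eif4ebp2 (0.54) reached 0.5, which is 2 of 7 genes (28.6%) against 36.5% of all genes. Eif4e itself was not among the Eif genes chosen by symbol. Eif4ebp1, the binding protein best known as an mTOR target, had 0.37, Eif4enif1, which carries eIF4E into the nucleus, 0.24, Eif4e3 0.22 and Eif4e1b 0.17. Eif4ebp3 was the lowest of all 47 genes at -0.81 ± 0.81, with -1.20 at -308 bp, -0.83 at -113, 0.33 at 145 and -1.52 at 407. Its mean was -0.25 with probes within 250 bp only and -0.33 with normexp background correction. It did hold a window of 1.03 at -3121 bp, away from the start. The group had the brightest input near the start, with a median log2 input signal of 1.16 relative to the array median against 0.77 for all Eif genes, and the part of input brightness in its low ratio was not tested. The Argonaute genes with near probes lay at 0.61 (Ago3), 0.48 (Ago1) and 0.27 (Ago4).

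**Figure D3:**
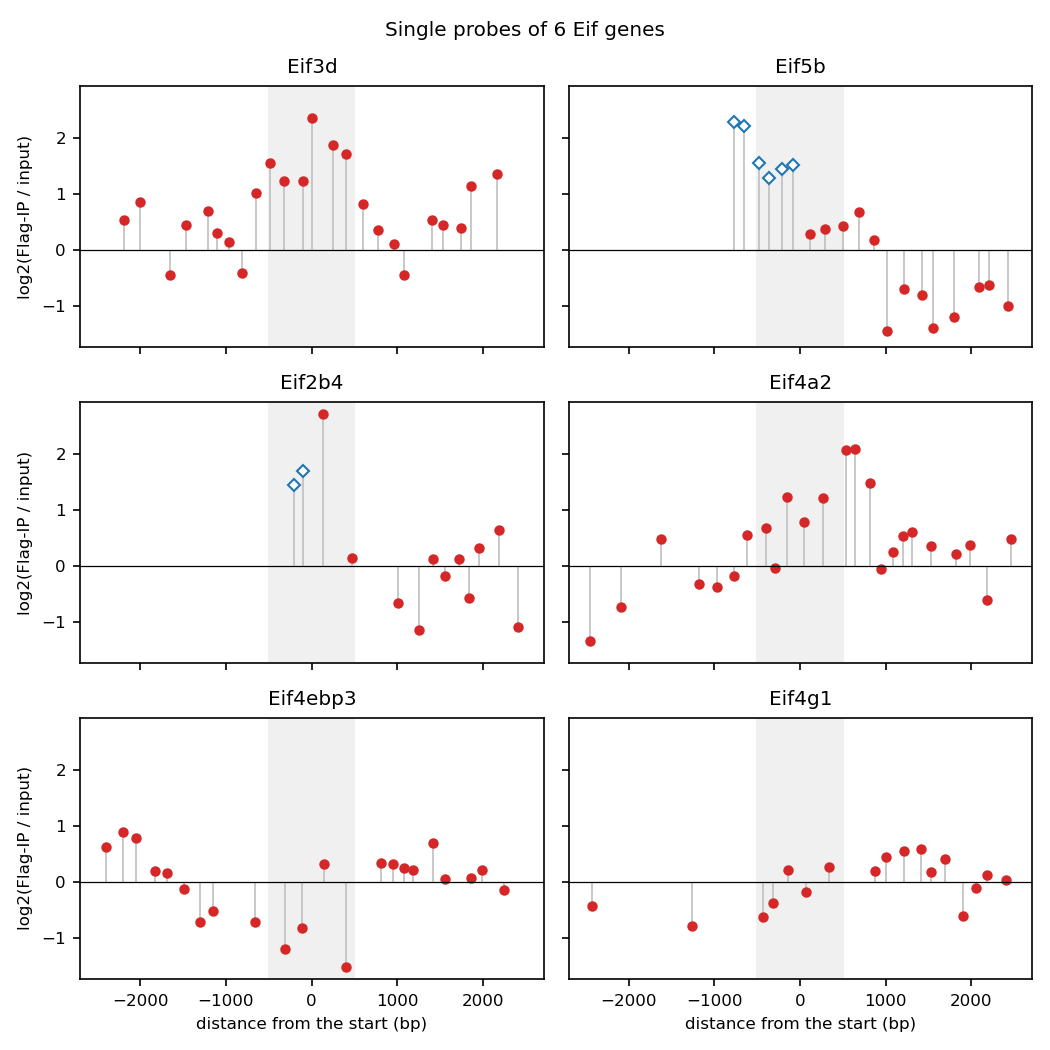
Log2 ratio of each probe against its distance from the start for 6 Eif genes; grey marks 500 bp to each side, red circles are probes of that gene alone and blue diamonds are probes shared with a neighbouring gene. Eif3d is raised on both sides of its start, Eif5b only on the shared side, Eif4a2 peaks beyond 500 bp, and Eif4ebp3 and Eif4g1 have no probe above 0.33 within 500 bp.

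Probes shared with a neighbouring gene carried much of the signal near the start of Eif5b and Eif3f. Of the 47 genes, 13 had probes also assigned to another gene, 5 of them only farther than 500 bp from the start. The 8 genes with a shared probe near the start had a median there of 0.79 (0.22 to 1.59), against 0.54 for the other 39 (-0.81 to 1.66). Eif5b faces Txndc9 with starts 801 bp apart, and all 6 probes between them were high, reading 2.29 at -770 bp, 2.23 at -656, 1.57 at -473, 1.30 at -360, 1.45 at -210 and 1.52 at -85. Past the start of Eif5b the ratio dropped at once, to 0.29 at 119 bp and 0.38 at 295, and to -1.44 at 1015 bp. The signal thus covered the interval between the genes and not the body of Eif5b, whose 2 own probes near the start averaged 0.34. The mean near the start of Txndc9 was 1.38.

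Eif2b4 faces Snx17, a sorting nexin gene, with starts 218 bp apart, and here both genes were high (1.50 and 1.63). The 2 shared probes of Eif2b4 averaged 1.57 and its 2 own probes 1.44. Eif2s1 faces Atp6v1d, a proton pump subunit gene, with starts 433 bp apart. Its 3 shared probes averaged 1.21 and its 2 own probes -0.11, while Atp6v1d had 1.13. The 2 own probes were unlike, with 1.09 at 345 bp and -1.32 at 471 bp, the probe of very bright input. In Eif2a, 261 bp from Serp1, the order was the other way, with 0.90 for Eif2a and 0.37 for Serp1. Eif3i and Tmem234, 95 bp apart, had 0.51 and 0.82, and Eif3k and Map4k1, 1039 bp apart, were both low (0.22 and 0.23). The array cannot say which gene of a pair a shared probe belongs to.

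**Figure D4:**
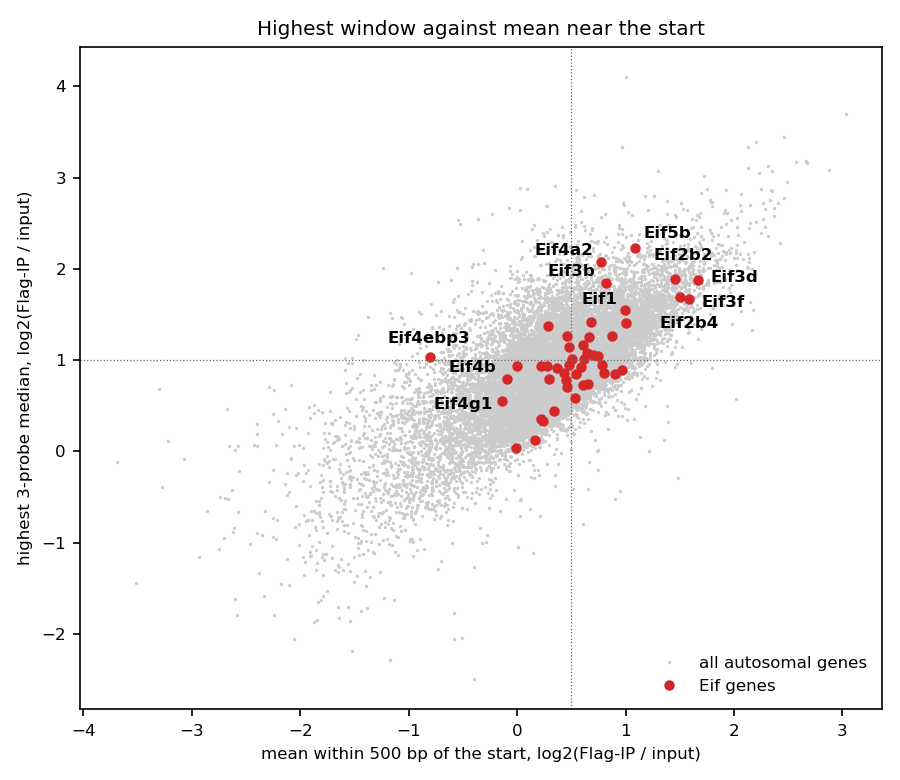
Highest 3-probe median of each gene against its mean within 500 bp of the start, for all autosomal genes (grey) and the 47 Eif genes with both (red); dotted lines mark 1 and 0.5. Eif3d, Eif2b2, Eif3f and Eif2b4 are high on both axes, Eif5b and Eif4a2 are the only Eif genes above 2 on the vertical axis, and Eif4ebp3 reaches 1.03 there with a mean of -0.81.

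Across the 47 genes the mean near the start and the highest window had a Pearson correlation of 0.65, against 0.72 over all genes, as a description with no test. Log ratio and brightness were related on both arrays over all probes (correlation 0.57 and 0.55). The mean near the start followed the input signal of the same probes over all genes (r = 0.34, 15689 genes) but not over the Eif genes (r = -0.16, 47 genes). Input near the start was brighter for the Eif genes, with a median log2 signal of 0.77 relative to the array median against 0.48 for all genes. When the trend of the ratio with brightness was taken out, the count at 0.5 or more was 12 of 47 genes (25.5%), against 24.0% of all genes, and thus no longer apart from the background. The median near the start was then 0.32, still 0.13 above that of all genes. Under that setting the median of the highest window was -0.11 relative to all genes, the opposite sign.

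RefSeq promoters were matched for 38 of the 48 genes and 12790 autosomal array genes. The Eif promoters were richer in GC, with a median of 62.3% against 58%, and in CpG, with a median of 24.5 in 300 bases against 16. Over all genes the mean near the start rose with CpG count (r = 0.31, 12337 genes), and over the 38 Eif genes it did not (r = -0.24). Among the 3982 genes whose CpG count lay between the quartiles of the Eif promoters, the median was 0.51 and 50.3% reached 0.5. The 19 Eif genes in that range had a median of 0.65. The Eif genes differed from all genes in base composition and input brightness as well as in ratio. The part of either in the difference in ratio was not tested beyond these values.

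TAAT, the core letters of most homeodomain sites, was in 15 of 38 Eif promoters (39.5%), against 49.4% of all array gene promoters. TGATNNAT, the composite for Hox with Pbx, was in 0 of 38, against 6.54%. CCGGAAG was in 12 (31.6%) against 13.5%, CACGTG in 7 (18.4%) against 8.60%, and GCATGCGC (NRF1) and AAGATGGC in 2 each (5.26%), against 4.08% and 3.53%. The median near the start was 0.82 for the 15 Eif genes with TAAT and 0.46 for the 23 without. It was 0.63 with CCGGAAG and 0.54 without, 1.16 with AAGATGGC and 0.60 without, and lower with CACGTG (0.43 against 0.61) and GCATGCGC (0.45 against 0.61). These are counts of letters in 300 bases on both strands, and a window without a match says nothing about the factor. The same medians over all array genes are not given here, and a relation of any motif to the ratio was not tested.

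The Eif genes had a lower median near the start than both ribosomal protein families. There, the 71 cytosolic ribosomal protein genes had a median of 0.90 with 85.9% at 0.5 or more, and the 75 mitochondrial ones 0.80 with 72.0%. The 36 proteasome subunit genes, which form another housekeeping complex, had 0.62 with 69.4%, all against 36.5% of all genes. At 1 or more lay 39.4% of cytosolic and 32.0% of mitochondrial ribosomal protein genes and 19.4% of proteasome genes, against 12.8% of Eif genes. The ranges of single genes overlapped widely in every group.

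**Figure D5:**
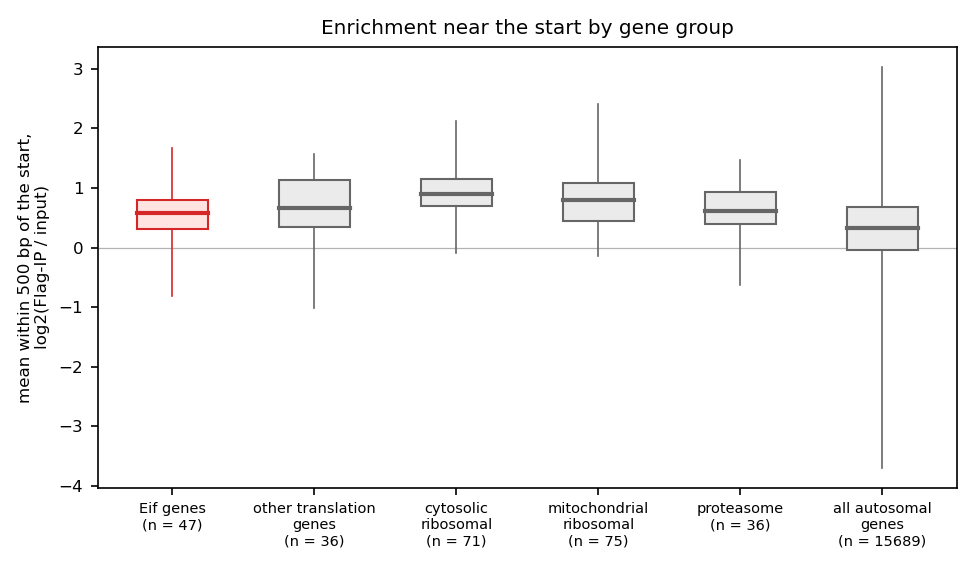
Mean log2 ratio within 500 bp of the start by gene group, with the median (thick line), quartiles (box) and the lowest and highest gene (thin line). The Eif genes have a median of 0.59, between all autosomal genes (0.32) and the cytosolic ribosomal protein genes (0.90).

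Of 41 other genes listed from the regulation and later steps of translation, 39 were measured and 36 had probes near the start, with a median of 0.66 and 22 of 36 at 0.5 or more (61.1%), against 36.5% of all genes. The 8 genes of the integrated stress response, which acts downstream of eIF2 phosphorylation, had a median of 1.08, and 7 of 8 reached 0.5, against 36.5% of all genes. This list was drawn up with earlier results on some of its genes known, so its level is a description only. It was led by Ppp1r15b (1.41), Sesn2 (1.39), Ppp1r15a (1.36) and the transcription factor gene Atf4 (1.13). Ppp1r15a and Ppp1r15b encode the phosphatase subunits that reverse eIF2 phosphorylation. The 12 mTOR and MNK signalling genes had a median of 0.63, with Akt1s1 at 1.57 and Tsc2 at 1.44, the 7 elongation genes 0.47, the 5 termination and recycling genes 0.60 and 4 genes of mRNA binding and start site choice 0.55. Pelo, which rescues stalled ribosomes, had -1.02, lower than any Eif gene.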

How the data were processed

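Binding was measured on 2 two-colour Agilent promoter arrays, 1 sample each. Per the file headers, the deposited intensity of each channel is the processed signal of Agilent Feature Extraction 10.1.1.1, after background and multiplicative detrending and linear dye normalization. The deposited log10 column holds the ratio of Cy5 (Flag-IP) over Cy3 (input). No source used here gives the genome build. Computed here were log2 ratios of the processed intensities, centred on each array's median without loess, leaving out control and outlier spots (19 and 38 probes). Probes were tied to genes and distances through the accessions column, and 16334 of 16908 symbols were matched by accession to RefSeq GRCm38.p6 names. Per gene, the highest and lowest median of 3 neighbouring probes, starts at most 1000 bp apart, and the mean within 500 bp were taken. Thresholds were 1, 2 and -2 for windows and 0.5 and 1 for the mean. With no replicate no test was made. The scripts were tested on simulated data. Alternatives included normexp (offset 50, limma 3.58.1 in R 4.3.3) and removal of the brightness trend in 200 bins. Other steps used Python 3.11.15, numpy 2.4.6 and pandas 2.3.3. Probe by probe values are given for the 5 genes with the highest mean near the start, the 3 others with the highest window and the 3 lowest means, and every gene may be named; Eif2s1 was added after its values were seen. The other translation genes and families are lists of symbols. The genes and lists were chosen with earlier results of these data known. The 6 expression arrays were not used.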

Additional observations from a re-analysis of the deposited data

How the results depend on the processing

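The median near the start lay above that of all genes under all 11 alternatives run on it, by 0.13 to 0.35, and the Eif median ranged from 0.32 to 0.83. With normexp background correction 36 of 48 genes had a window of 1 or more (51.2% of all genes). A window of 2 or more was in 4 (4.52%) and a window of -2 or less in 0 (0% of all genes as well). Under the same correction 12 had a mean near the start of 1 or more (17.5%), and Eif4g1 stood at 0.26 instead of below 0. With the brightness trend removed, 12 genes had a window of 1 or more (33.0% of all genes). A window of 2 or more was in 0 (0.90%) and a window of -2 or less in 1 (0.59%). Under the same setting 12 had a mean of 0.5 or more (24.0%), and the median highest window was -0.11 relative to all genes. With 5-probe windows 14 genes reached 1 (26.8% of all genes), 0 reached 2 (1.00%) and 0 reached -2 (4.50%). With only probes well above background 1 gene reached -2 (3.91% of all genes), and with no centring 1 gene did (9.62%). Without shared probes 1 gene reached 2 (2.37%), and Eif2b4 and Eif5b had highest windows of 0.32 and 0.44 and Eif5b a mean of 0.34. Eif3f then had a mean of 0.54 and a highest window of 1.52. Within 250 bp Eif4g1 was at 0.022, and within 1000 bp Eif4b was at 0.19 and Eif3d at 1.01. The cause of these changes was not tested. The deposited log ratio and value table gave the same counts as the processed signals. They hold the same ratios at nearly every probe, so these alternatives are not separate checks. Leaving out the Argonaute genes was chosen after seeing the data and moved no count by over 1.5 times. The expression comparison and its alternatives were not run. No paired analysis was possible because no table here pairs expression probe sets with genes and each promoter is on 1 array. With 1 array per promoter, the number of arrays limits the precision.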

Other observations

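Of the genes left out for lying on the sex chromosomes, Eif1ay (X on the array) had a mean near the start of 0.42 ± 0.28 (SD over 6 probes) and Eif2s3x, the gamma subunit of eIF2, 0.64 ± 0.34 over 3 probes. Its Y-linked copy Eif2s3y had -0.01 ± 1.66 over 6 probes, which ran from -2.50 to 1.78, and its lowest window was -3.46. A second set of 12 probes under the symbol Eif5 lay on another chromosome, with 1 probe near the start at -0.26, and was kept apart from the Eif5 gene described above.

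Among genes now named Eif but listed on the arrays under other symbols, Eif1ad had 1.87 ± 0.52 over 4 probes near the start and a highest window of 2.11, a mean above that of each of the 47 genes chosen by symbol. Eif6, which keeps the ribosomal subunits apart, had 0.85 ± 0.58 over 4 probes, Eif3m 0.74 ± 0.55 over 5 and Eif2d 0.01 ± 0.81 over 6.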
